A study of Mus musculus with 12 samples.

Results

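Potassium channel genes were followed in the ascending aorta of mice as the genes whose symbol begins with Kcn. They were taken from the probe sets of the array annotation that carry 1 symbol, and a gene with several such probe sets was represented by the probe set of highest mean. This gave 92 of 19938 genes. By the letters of their symbols 25 are voltage-gated pore subunits, 10 modifier subunits that join voltage-gated channels, 12 accessory subunits of voltage-gated channels, 8 calcium- or sodium-activated pore subunits, 4 accessory subunits of the BK channel, 15 inward rectifiers and 14 two-pore-domain channels, and 4 belong to none of these classes.

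RNA of the ascending aorta was measured on 12 single-channel whole-transcript arrays in 4 groups of 3. All mice, controls included, had Tgfbr2 flanked by loxP sites (the locus of TGF-beta's type II receptor) and the Myh11-CreERT2 transgene, a Cre recombinase driven by the promoter of smooth muscle myosin that enters the nucleus only under tamoxifen. Groups called knockout here received 1 mg of tamoxifen by intraperitoneal injection on 5 days from 4 weeks of age, and groups called control received corn oil on the same days, so that knockout and tamoxifen cannot be told apart in any comparison. In each treatment 1 group was wild-type for Fbn1, which encodes the microfibril protein fibrillin-1, and 1 group was heterozygous for its C1039G allele (Fbn1 C1039G/+), a mouse model of Marfan syndrome. The mice were 6 weeks old when the vessel was taken, which ran from beyond the coronary ostia up to where the arch first branches. The labels do not say whether each array holds 1 animal or a pool.

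As background, potassium leaving a smooth muscle cell through its channels makes the inside of the cell more negative, which closes voltage-gated calcium channels and relaxes the vessel. Voltage-gated channels and the BK channel open on depolarisation, the BK channel also on a rise of calcium, whereas inward rectifiers and two-pore-domain channels set the resting potential. ATP-sensitive channels, made of an inward rectifier pore and a sulfonylurea receptor, couple the potential to metabolism.

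Values are log2 of the deposited intensity, and a difference is given on the log2 scale ± its standard error, with a p-value adjusted by the Benjamini-Hochberg method over the 14944 genes tested. A gene was called where limma's adjusted p was under 0.05, and "rose" and "fell" are used of called genes only. The median intensity of the arrays lay between 301 and 334, and log2 values of the tested genes correlated at 0.993 to 0.996 within groups and at 0.981 to 0.993 between groups. Tgfbr2 itself gave a knockout difference of -0.08 ± 0.05 (adjusted p = 0.324) with wild-type Fbn1 and of 0.04 ± 0.05 (adjusted p = 0.594) with mutant Fbn1. The annotation used does not say which exons its probe set covers, so this level does not check the labels, and "knockout" names a group as the labels do. In each genotype the free-text descriptions of knockout replicates 2 and 3 name Tgfbr3 and Tgfbr4, whereas the titles, sources and characteristics of all knockout arrays name Tgfbr2, which is followed here.

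Markers of other cell types moved with the knockout. The sum of the intensities of 10 macrophage markers was 6000 to 6970 in wild-type controls, 11900 to 13200 in the wild-type knockouts, 6900 to 8540 in mutant controls and 9380 to 9740 in mutant knockouts, and 10 of 10 rose with the knockout in the wild-type and 5 of 10 in the mutant. For 10 endothelial markers the sums were 15000 to 17300, 19500 to 25200, 13700 to 17800 and 17800 to 21700 in the same order, with 5 and 6 called, all higher. For 10 cardiac muscle markers they were 9470 to 10800, 13000 to 14900, 8160 to 11400 and 14300 to 17000. Of the 9 cardiac markers tested, 2 rose and 1 fell in each genotype, and Myl2, the defining ventricular light chain, lay at background. Sums of 10 smooth muscle markers, which name the labelled tissue, stayed between 115000 and 120000 in all 4 groups. Acta2 and Myh11 were called in no comparison, but other markers of the list were. Smtn and Lmod1 fell with the knockout in the wild-type, and Des rose and Myocd fell in the mutant. Between genotypes Des and Synpo2 were called lower in the mutant among controls, and Myocd among knockouts. Fat markers ranged from 3470 to 6810 over all groups, with 2 of 7 tested markers higher with the knockout in each genotype and Ucp1 and Lep at background by their group means. Yet 2 arrays stood apart in Ucp1, the brown fat uncoupling protein, mutant control 3 at 8.58 and mutant knockout 1 at 8.21. Fibroblast markers summed to 46400 to 51900, 56300 to 59200, 54000 to 54900 and 49800 to 55000 in the order above, with 5 of 10 higher with the knockout in the wild-type, and 2 higher and 1 lower in the mutant. Skeletal muscle markers summed to 3230 to 3390, 3430 to 3590, 3150 to 3300 and 3650 to 3860, with 1 and 4 of 5 tested markers higher, while Myh1, Myh2, Myh4, Mylpf and Pvalb lay at background. Nerve and glia markers summed to 1630 to 1700, 1840 to 1980, 1600 to 1660 and 1730 to 1830, with 2 and 0 of 5 higher and Gfap, Tubb3, Snap25 and Nefl at background. Of the 2 erythroid markers tested 0 were called with the knockout. Except where a covariate is named below, the part of these cell types in the results was not tested. In bulk tissue fewer cells of a type and less RNA per cell cannot be told apart.

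Background was judged by a pair of marks on intensity, neither of which is a detection call. Genes with a mean under log2 7.31, the 25th percentile of single-symbol probe sets, were not tested. Genes whose highest group mean lay under log2 7.63, the 95th percentile of 1027 olfactory receptor genes, were taken as at background, which holds for 28.6% of all genes. By these marks 67 potassium channel genes were tested and 25 were not, and all 25 untested ones also lay at background. These were Kcnk9, Kcnj9, Kcnj5, Kcnj12, Kcnrg, Kcnb2, Kcnip1, Kcnh8, Kcnv1, Kcnu1, Kcnip2, Kcnmb2, Kcnk18, Kcne1, Kcne3, Kcnj1, Kcnj16, Kcnc2, Kcnj6, Kcnj2, Kcns2, Kcnn2, Kcnh5, Kcnh7 and Kcna4. Another 5 (Kcnj3, Kcnk10, Kcnj13, Kcne2 and Kcna5) passed the filter and still lay at background, which makes 30 of 92. The lowest mean inside the filter was 7.40 (Kcna5) and the highest outside it 7.26 (Kcnk9). The highest group mean just under the olfactory mark was 7.59 (Kcna5), and the lowest above it was 7.64 (Kcns1).

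The classes differed in how many members lay at background. Of the inward rectifiers 9 of 15 did so, among them Kcnj2, the strong rectifier described in small arteries, whose arrays ranged from 6.12 to 6.53. Of the voltage-gated pore subunits 7 of 25 lay there, including Kcna5, a delayed rectifier described in arterial muscle. It was 5 of 12 for accessory subunits of voltage-gated channels, 3 of 14 for two-pore-domain channels, 2 of 10 for modifier subunits, 2 of 8 for calcium- or sodium-activated pores (Kcnu1 and the small-conductance channel Kcnn2), and 1 of 4 for BK accessory subunits. Means of at least log2 10 were measured for 11 members, which were Kcnmb1, Kcnab1, Kcnma1, Kcnj15, Kcnj8, Kcnh2, Kcnk6, Kcnd3, Kcnip4, Kcnk3 and Kcnc4. A probe set's intensity also depends on its probes, so these levels do not rank the genes.

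**Figure D1:**
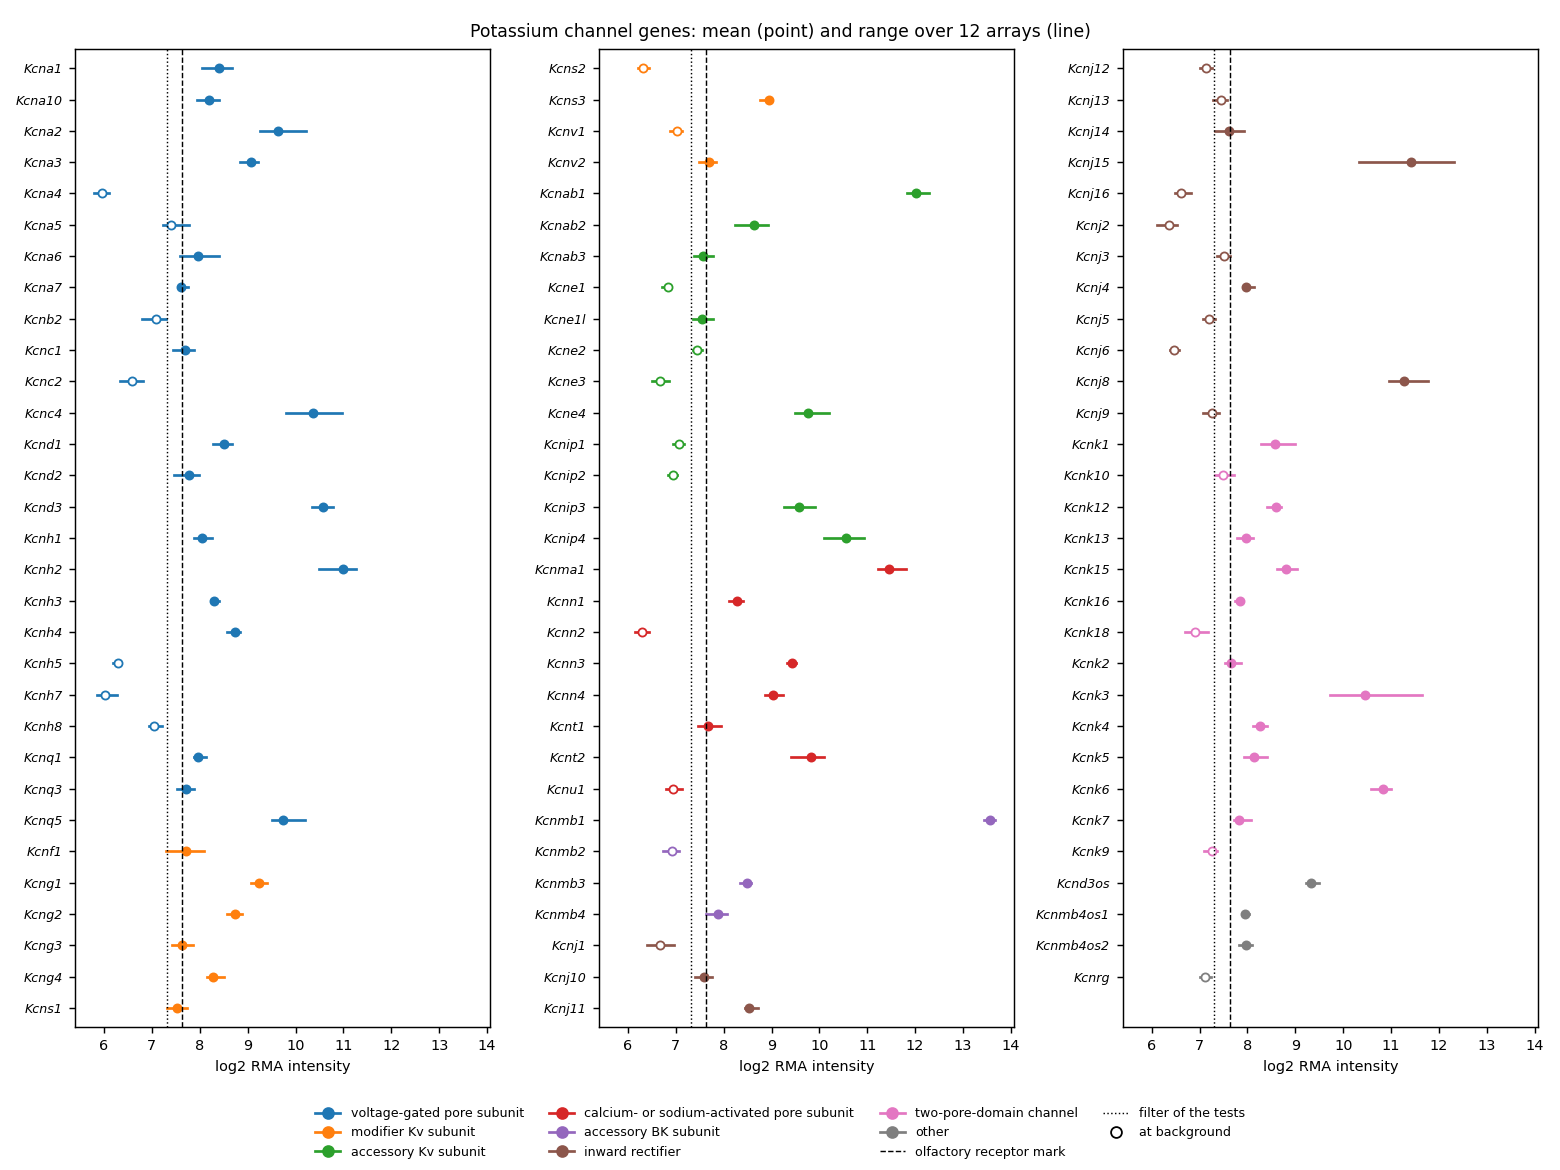
Mean (point) and range over 12 arrays (line) of log2 RMA intensity for each of the 92 potassium channel genes, coloured by class, with open points for members at background by their highest group mean. The dotted line is the filter of the tests (7.31) and the dashed line the olfactory receptor mark (7.63), and 30 members have open points.

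In the wild-type, Kcnh2, Kcnc4, Kcnip4, Kcnma1, Kcna6, Kcnmb1 and Kcng4 fell with the knockout, and Kcnk3, Kcnab2, Kcnk6, Kcnk13 and Kcnk15 rose. These 12 calls are 17.9% of the 67 members tested, where 18.8% of all tested genes were called, with 9.17% of all genes higher and 9.66% lower. Knockout and control arrays did not overlap for 23 of 67 members, where 35.8% of all genes did not overlap. The median difference of the members was 0.02, beside -0.01 for all genes, and 37 of 67 were positive, beside 7054 of 14944 genes. Refits without 1 array kept 7 of the 12 calls every time, those of Kcnab2, Kcnc4, Kcnh2, Kcnip4, Kcnk3, Kcnma1 and Kcnmb1, and the count fell to 7 without wild-type knockout array 1. Over all genes 1874 were called without that array. With the mean deviation of the cardiac markers as a covariate 3 calls were left, those of Kcnab2, Kcnh2 and Kcnmb1, and 985 over all genes.

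In the Fbn1 mutant, Kcnk3, Kcna2, Kcnj8, Kcnf1, Kcnab2, Kcnc4, Kcna10, Kcnk15, Kcnd3, Kcnab3 and Kcnh4 rose with the knockout, and Kcnip4, Kcnt2 and Kcnab1 fell. These 14 calls are 20.9% of the members, beside 13.4% of all genes, of which 7.66% were higher and 5.77% lower. The groups did not overlap for 31 of 67 members, beside 35.9% of all genes. The median member differed by 0.10, beside 0.03 over all genes. A positive difference was found for 53 of 67 members, beside 8540 of 14944 genes. Quantile normalization gave 0.05 for the median and 49 positive members. Refits without 1 array kept the calls of Kcna2, Kcnab2, Kcnc4, Kcnip4, Kcnj8, Kcnk15 and Kcnk3 every time, and the count fell to 8 without mutant control array 2 and to 9 without mutant knockout array 2. Over all genes 896 and 1049 were called without these arrays. The cardiac covariate left the calls of Kcna2, Kcnc4 and Kcnk3, and 156 over all genes.

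Between the Fbn1 genotypes among controls, Kcnj15, Kcnc4, Kcna6, Kcnma1 and Kcnt2 were lower in the mutant and Kcnk3 and Kcnk6 were higher. The 7 calls are 10.4% of the members, beside 6.49% of all genes (3.17% higher and 3.33% lower), and the groups did not overlap for 19 of 67 members, beside 28.1% of all genes. Among knockouts, Kcnj15 and Kcnt2 were lower in the mutant, and Kcnk3, Kcna2, Kcnh2, Kcnh1, Kcnab3 and Kcna5 were higher. These 8 calls are 11.9% of the members, beside 5.96% of all genes (2.80% higher and 3.16% lower), with no overlap for 19 of 67 members, beside 26.3% of all genes. The median member differed by -0.06 among controls (-0.02 over all genes) and by 0.02 among knockouts (0.01 over all genes). The latter turned to -0.01 with quantile normalization or with arrays centred on their median. Positive differences numbered 17 of 67 among controls and 42 of 67 among knockouts, beside 6306 and 8258 of 14944 genes. Refits without 1 array kept the calls of Kcna6, Kcnc4, Kcnj15, Kcnk6 and Kcnt2 among controls and of Kcnab3, Kcnh1, Kcnj15, Kcnk3 and Kcnt2 among knockouts every time, and the cardiac covariate left these same members called.

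Knockout and genotype comparisons share arrays, so the calls of a gene in one and in the other are not independent. The knockout comparisons of the wild-type and of the mutant share none: 5 members were called in both, 7 in the wild-type alone and 9 in the mutant alone. Of the 5, Kcnk3, Kcnab2 and Kcnk15 rose and Kcnip4 fell in both genotypes, whereas Kcnc4 fell in the wild-type and rose in the mutant. Over the 5 comparisons, the difference of the knockout effects included, 24 members were called at least once and 43 in none. Of the 46 calls, 41 compare a pair of groups, and in each of these 41 the arrays of the groups did not overlap. The calls were made on the same values, so this separation is no separate evidence for them. Of all tested genes, called or not, 26.3% to 35.9% were without overlap in these comparisons.

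**Figure D2:**
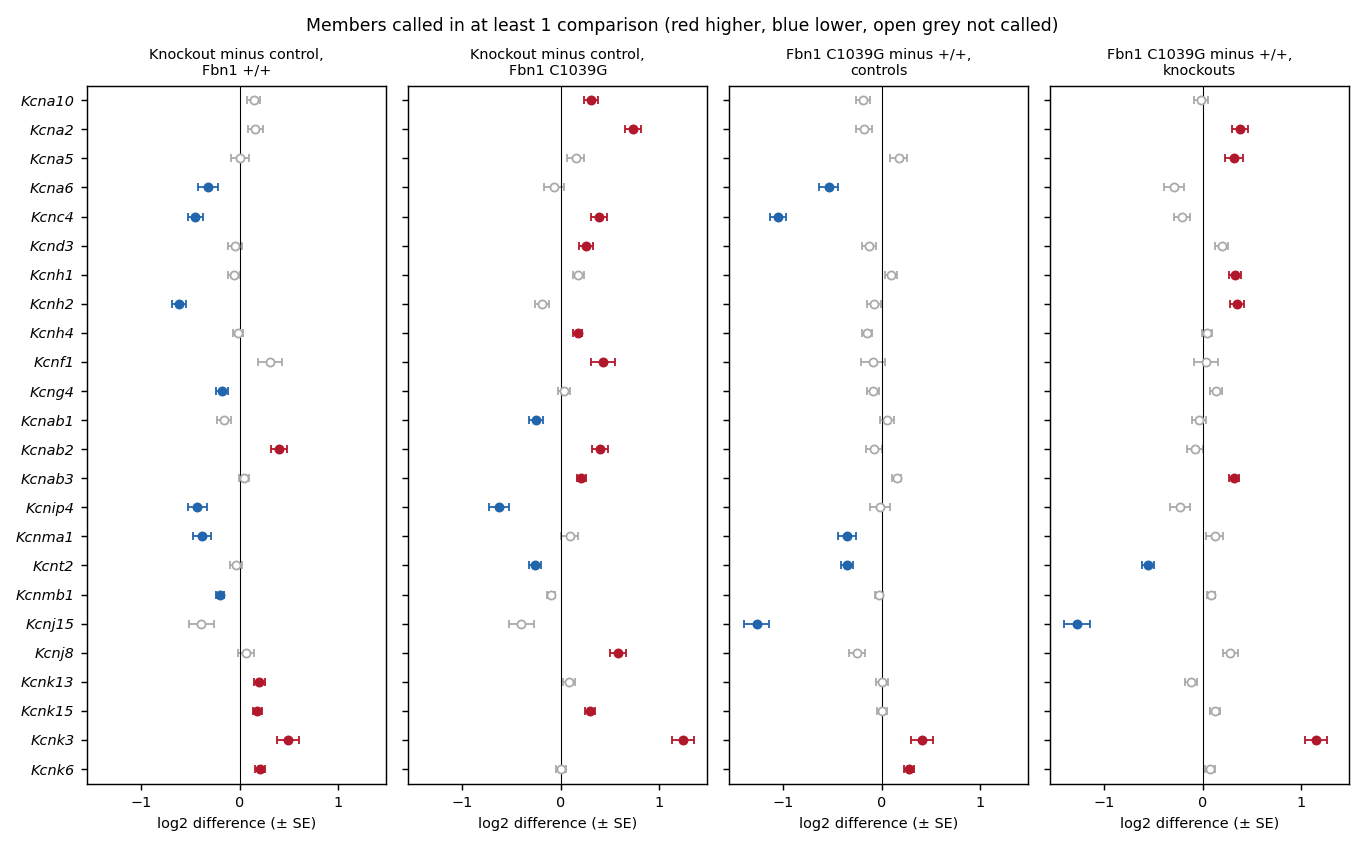
Log2 difference ± standard error of the 24 members called at least once, in the knockout comparisons of both Fbn1 genotypes and the genotype comparisons of controls and of knockouts, with red for called higher, blue for called lower and open grey for not called. Kcnk3 lies to the right of 0 in all 4 panels, Kcnj15 lies to the left in all 4 and is called in the genotype comparisons only, and Kcnc4 changes side between the knockout comparisons.

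Two-pore-domain channels pass a background current that is open at rest. Of the 12 tested, 4 rose and 0 fell with the knockout in the wild-type, 2 rose and 0 fell in the mutant, and the mutation raised 2 among controls and 1 among knockouts and lowered 0. The shares called were 33.3%, 16.7%, 16.7% and 8.33% in these comparisons, beside 18.8%, 13.4%, 6.49% and 5.96% of all genes. Median differences of the class were 0.10, 0.12, -0.03 and 0.04.

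Kcnk3, an acid-sensitive background channel known from pulmonary artery and heart muscle, had the largest increase of the class. Its log2 intensity was 9.72, 9.87 and 9.84 in wild-type controls, 10.32, 10.30 and 10.29 in the wild-type knockouts, 10.15, 10.34 and 10.18 in mutant controls and 11.60, 11.64 and 11.13 in mutant knockouts. Every mutant knockout array lay above every other array, every wild-type control array lay below every other, and the other 2 groups overlapped. With the knockout it rose by 0.49 ± 0.11 (adjusted p = 0.00753) in the wild-type, and in the mutant the rise was 1.24 ± 0.11 (2.35-fold, adjusted p = 3.44e-05). The mutant was higher by 1.15 ± 0.11 (2.22-fold, adjusted p = 0.000123) among knockouts. Among controls it was higher by 0.41 ± 0.11 (adjusted p = 0.0422), a call that was lost without any 1 of 9 arrays (all but those of the mutant knockouts), with adjusted p from 0.0567 to 0.165.

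Cardiac markers, and some fat markers, ran partly with Kcnk3. Tnnt2, cardiac troponin T, rose by 0.62 ± 0.16 and 1.01 ± 0.16 with the knockout in the wild-type and the mutant, and the atrial light chain Myl7 by 1.21 ± 0.27 in the mutant (0.63 ± 0.27, adjusted p = 0.125, in the wild-type). The cardiac actin Actc1 rose by 1.00 in the wild-type (adjusted p = 0.0176), with 0.54 in the mutant (adjusted p = 0.174). The calcium release channel Ryr2 fell by 0.86 (adjusted p = 0.000384) and by 0.40 (adjusted p = 0.0435), and Myl4, Myh6, Tnni3, Nppa and Mybpc3 were called in neither. Of the fat markers, Cidea rose by 0.74 ± 0.16 (adjusted p = 0.00682) in the wild-type and by 0.96 ± 0.16 (adjusted p = 0.00282) in the mutant. Pparg rose by 0.69 ± 0.12 and by 0.60 ± 0.12, and Adipoq, Plin1, Fabp4, Lipe and Cidec were called in neither. The part of Cidea and Pparg in the Kcnk3 result was not tested. Among controls, where Kcnk3 was higher in the mutant, Tnnt2 and Myl7 differed by -0.33 and -0.22 (adjusted p = 0.233 and 0.662). Actc1, Myh6, Tnni3 and Myl4 differed there by 0.65, 0.60, 0.43 and 0.34 (adjusted p from 0.095 to 0.154). Of the 9 cardiac markers tested, 5 had a positive difference between the control groups and 0 were called, with a median of 0.11. With the mean deviation of the cardiac list as a covariate, Kcnk3 differed by 1.03 (adjusted p = 0.0133) with the knockout in the mutant and by 1.01 (adjusted p = 0.00435) between genotypes among knockouts. In the wild-type the same fit gave 0.35 (adjusted p = 0.171), so that call was lost. Fewer degrees of freedom remain in that fit. It called 985 genes for the knockout in the wild-type and 156 in the mutant, beside 2814 and 2008 without the covariate. The score was -0.25 to -0.22 in wild-type controls and -0.03 to 0.10 in the wild-type knockouts, and -0.25 to 0.06 and 0.14 to 0.52 in the mutant groups. Score and knockout thus ran together in both genotypes, so a knockout call lost with this covariate cannot be assigned to either.

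**Figure D3:**
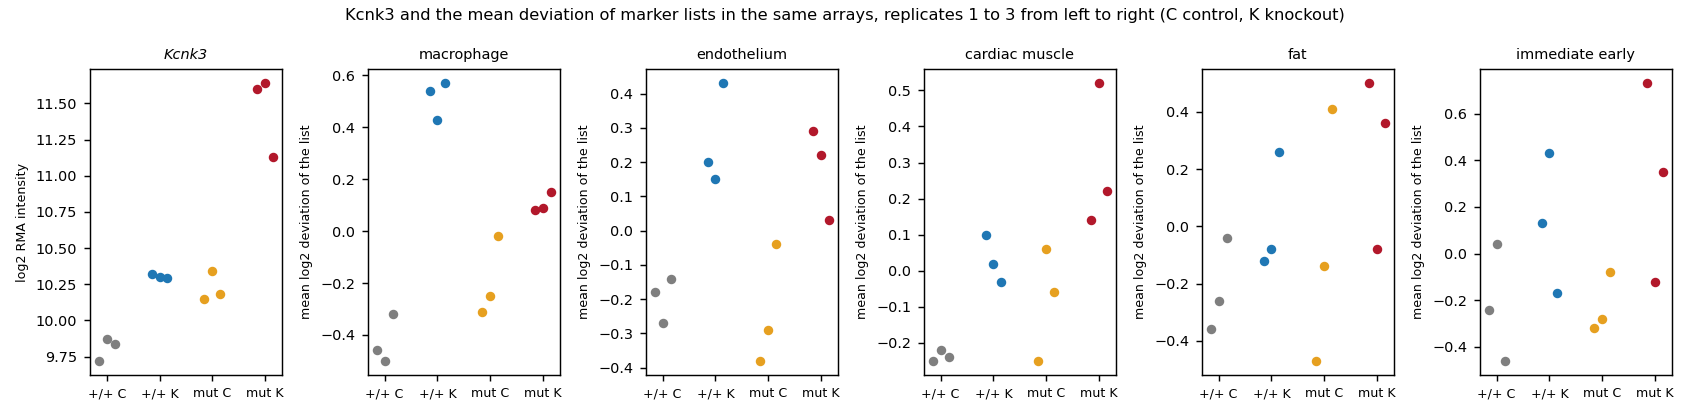
Log2 RMA intensity of Kcnk3 and the mean log2 deviation of the macrophage, endothelial, cardiac muscle, fat and immediate early gene lists from their means, in each of the 12 arrays, with replicates 1 to 3 from left to right (C for control, K for knockout). Kcnk3 is highest in the 3 mutant knockout arrays (11.13 to 11.64), the macrophage list in the wild-type knockout arrays, and the fat and immediate early lists spread widely within groups.

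The other two-pore-domain channels moved less. Kcnk6, a weakly rectifying channel whose loss raises pulmonary pressure in mice, averaged 10.64 ± 0.06 (SD, n = 3) in wild-type controls, 10.85 ± 0.01 in the wild-type knockouts, 10.91 ± 0.09 in mutant controls and 10.91 ± 0.02 in mutant knockouts. It rose by 0.21 ± 0.05 (adjusted p = 0.0163) with the knockout in the wild-type, a call lost without wild-type control array 3 (0.18, adjusted p = 0.0582) and without wild-type knockout arrays 1 or 3 (adjusted p = 0.0526 and 0.0524). The mutant controls lay above the wild-type controls by 0.28 ± 0.05 (adjusted p = 0.0108), and mutant knockouts differed from mutant controls by 0.00 (95% interval -0.12 to 0.11). Kcnk15, a relative of Kcnk3 that is not known to pass current by itself, rose with the knockout in both genotypes, by 0.18 ± 0.05 (adjusted p = 0.0319) where Fbn1 was wild-type and by 0.30 ± 0.05 (adjusted p = 0.00411) where it was mutant. Kcnk13, a halothane-inhibited channel, rose by 0.20 ± 0.06 (adjusted p = 0.0431) in the wild-type, beside 0.08 ± 0.06 (adjusted p = 0.376) in the mutant. The wild-type calls of Kcnk15 and Kcnk13 were lost without any 1 of 4 and of 8 arrays, with adjusted p up to 0.128 and 0.165.

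Inward rectifiers gave the largest decrease. Of the 8 tested, Kcnj15 alone was called between genotypes, lower in the mutant, and Kcnj8 alone with the knockout, higher in the mutant. Median differences of the class were 0.01 and 0.10 for the knockout in the wild-type and in the mutant, and -0.13 and 0.02 for the mutation among controls and among knockouts. The shares called were 0%, 12.5%, 12.5% and 12.5% in this order, beside 18.8%, 13.4%, 6.49% and 5.96% of all genes.

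Kcnj15 encodes a weak inward rectifier described in kidney and pancreas. Its log2 intensity was 12.32, 12.32 and 12.08 in wild-type controls, 11.80, 11.83 and 11.92 in the wild-type knockouts, 11.25, 10.74 and 10.93 in mutant controls and 10.34, 10.56 and 10.81 in mutant knockouts. All 6 mutant arrays lay below all 6 wild-type arrays. The mutation lowered it by 1.27 ± 0.13 among controls (2.41-fold lower, adjusted p = 0.000322) and by 1.28 ± 0.13 among knockouts (2.43-fold lower, adjusted p = 0.000194). With the knockout the differences were -0.39 ± 0.13 (adjusted p = 0.0522) in the wild-type and -0.40 ± 0.13 (adjusted p = 0.0578) in the mutant, neither of them called. The first passed without wild-type control array 3 (-0.47, adjusted p = 0.0429) and without mutant control arrays 1 or 2 or mutant knockout arrays 1 or 3 (adjusted p from 0.0259 to 0.0387), and the second without mutant control array 2 or mutant knockout array 3 (-0.52 in both, adjusted p = 0.0404 and 0.0254). With all arrays kept, both passed with arrays centred on their median (adjusted p = 0.0339 and 0.0315) and with array weights (0.0239 and 0.0218). The first also passed with quantile normalization (adjusted p = 0.0407) and a filter at the median (0.0456). With the cardiac score as a covariate they were -0.26 (adjusted p = 0.448) and -0.21 (adjusted p = 0.685).

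Kcnj8 encodes the pore of the vascular ATP-sensitive channel. Its log2 intensity was 11.24, 11.17 and 11.31 in wild-type controls, 11.23, 11.30 and 11.36 in the wild-type knockouts, 10.97, 11.05 and 10.95 in mutant controls and 11.77, 11.60 and 11.37 in mutant knockouts. Mutant controls lay lowest and mutant knockouts highest, and the wild-type groups overlapped. The knockout raised it by 0.58 ± 0.08 (adjusted p = 0.00111) in the mutant, beside 0.06 ± 0.08 (adjusted p = 0.681) in the wild-type. Between genotypes it differed by -0.25 ± 0.08 (adjusted p = 0.0975) among controls and by 0.28 ± 0.08 (adjusted p = 0.0724) among knockouts, and without mutant knockout array 3 both passed (-0.25, adjusted p = 0.0338, and 0.38, adjusted p = 0.00882). Abcc9, which encodes the sulfonylurea receptor of that channel and lies next to Kcnj8 in the genome with no protein-coding gene between, differed by -0.05 ± 0.08 and 0.03 ± 0.08 with the knockout (adjusted p = 0.703 and 0.835) and by -0.26 ± 0.08 and -0.19 ± 0.08 between genotypes (adjusted p = 0.0615 and 0.194). The other ATP-sensitive pore, Kcnj11, ranged from 8.44 to 8.72 over the 12 arrays, and its difference was -0.10 (95% interval -0.25 to 0.05) in the wild-type and 0.03 (95% interval -0.12 to 0.18) in the mutant.

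Voltage-gated pore subunits form the largest class. Of the 19 tested, 0 rose and 3 fell with the knockout in the wild-type, and 5 rose and 0 fell in the mutant. The mutation lowered 2 among controls and raised 4 among knockouts. Median differences were -0.02, 0.15, -0.08 and 0.06 in this order.

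Kcnc4, a fast voltage-gated channel, gave opposite calls in the knockout comparisons. Its log2 intensity was 10.96, 10.95 and 10.81 in wild-type controls, 10.35, 10.45 and 10.59 in the wild-type knockouts, 9.89, 9.80 and 9.88 in mutant controls and 10.26, 10.11 and 10.37 in mutant knockouts. The control groups lay at the extremes and the knockout groups between them, overlapping by the array at 10.35 and that at 10.37. The knockout lowered it by 0.45 ± 0.08 (adjusted p = 0.00159) in the wild-type and raised it by 0.39 ± 0.08 (adjusted p = 0.00757) in the mutant. The mutation lowered it by 1.05 ± 0.08 among controls (2.07-fold lower, adjusted p = 3.36e-05), while among knockouts it differed by -0.21 ± 0.08.

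Kcnh2, the ether-a-go-go related channel of cardiac repolarisation, had the largest decrease with the knockout in the wild-type. Its log2 intensity was 11.27, 11.15 and 11.26 in wild-type controls, 10.59, 10.73 and 10.49 in the wild-type knockouts, 11.18, 11.19 and 11.08 in mutant controls and 11.05, 10.93 and 10.89 in mutant knockouts. The wild-type knockouts lay below all other arrays. It fell by 0.62 ± 0.07 (adjusted p = 7.57e-05) in the wild-type, and the difference in the mutant was -0.19 ± 0.07 (adjusted p = 0.0748), which passed with arrays centred on their median (-0.23, adjusted p = 0.0423). Among knockouts the mutant was higher by 0.35 ± 0.07 (adjusted p = 0.00949), lost without mutant knockout array 1 (0.31, adjusted p = 0.0519). Its relative Kcnh1 was 8.07, 7.91 and 7.90 in wild-type controls and 8.09, 7.97 and 8.11 in mutant controls. It was 7.88, 7.89 and 7.95 in the wild-type knockouts and 8.26, 8.24 and 8.21 in mutant knockouts, higher in the mutant among knockouts by 0.33 ± 0.06 (adjusted p = 0.0051).

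Kcna2, a delayed rectifier of arterial muscle and nerve, measured 9.43, 9.54 and 9.53 in wild-type controls, 9.74, 9.61 and 9.64 in the wild-type knockouts, 9.25, 9.25 and 9.45 in mutant controls and 9.94, 9.98 and 10.21 in mutant knockouts. The mutant knockouts lay above all other arrays. The knockout raised it by 0.73 ± 0.08 (adjusted p = 0.000136) in the mutant, beside 0.16 ± 0.08 (adjusted p = 0.176) in the wild-type, and among knockouts the mutant was higher by 0.38 ± 0.08 (adjusted p = 0.0129), lost without wild-type knockout array 2 (0.35, adjusted p = 0.0516). A second, dimmer probe set of Kcna2 with a mean of 7.71 gave 0.15 and 0.14 in these comparisons, so the probe sets disagree in size. Averaging both lowered the knockout difference in the mutant to 0.44, still called, and that between genotypes among knockouts to 0.26 (adjusted p = 0.0543), the latter no longer called.

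Kcna6, of the same family, was 8.41, 8.40 and 8.21 in wild-type controls, 7.97, 8.03 and 8.06 in the wild-type knockouts, 7.69, 7.71 and 8.0 in mutant controls and 7.70, 7.58 and 7.92 in mutant knockouts. The wild-type controls lay above all other arrays. The mutation lowered it by 0.54 ± 0.10 (adjusted p = 0.00741) among controls, and the knockout lowered it by 0.32 ± 0.10 (adjusted p = 0.0381) in the wild-type, a call lost without any 1 of 6 arrays (adjusted p from 0.0501 to 0.117). Kcna10, Kcnd3 and Kcnh4 rose with the knockout in the mutant by 0.31 ± 0.07, 0.26 ± 0.07 and 0.17 ± 0.05 (adjusted p = 0.0122, 0.0303 and 0.0386). Kcnd3 forms transient outward channels. The Kcna10 call was lost without mutant control array 2 (0.29, adjusted p = 0.0501), and those of Kcnd3 and Kcnh4 without any 1 of 5 and of 8 arrays.

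Of the other voltage-gated pores described in arteries, Kcnq5 and Kcnq1 were called in no comparison and Kcna5 in 1. Kcnq5 ranged from 9.50 to 10.19 over the arrays. It differed by -0.30 ± 0.12 (adjusted p = 0.105) between mutant knockouts and mutant controls and by 0.31 ± 0.12 (adjusted p = 0.129) between mutant and wild-type controls. Its mutant control arrays were 10.19, 10.09 and 9.66, and without the third of them both differences passed, at -0.46 (adjusted p = 0.0066) and 0.47 (adjusted p = 0.00962). Kcnq1 differed by 0.17 ± 0.06 (adjusted p = 0.0573) with the knockout in the mutant, which passed without wild-type knockout array 1 (adjusted p = 0.0442). Kcna5 was called higher in the mutant among knockouts by 0.32 ± 0.09 (adjusted p = 0.0497) although all its group means lie under the olfactory mark, and 10 of 12 refits without 1 array lost that call.

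**Figure D4:**
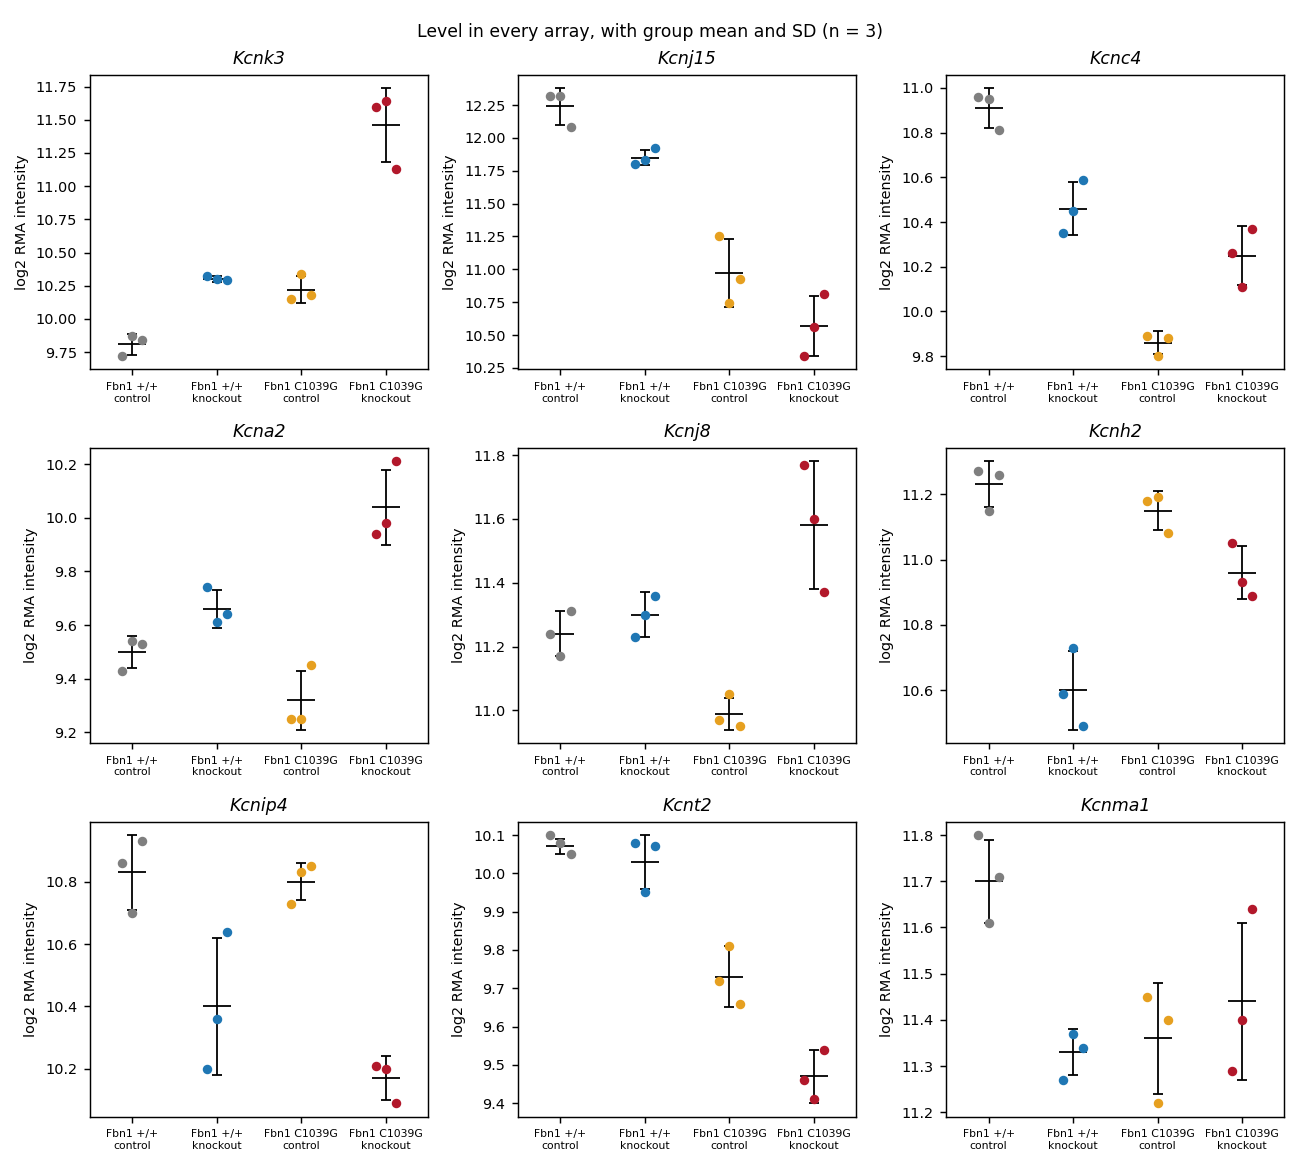
Log2 RMA intensity in each array (points), with group mean and SD (n = 3), for the 8 members with the largest called differences and for Kcnma1. Kcnj15 is lower in all 6 mutant arrays, Kcnk3 and Kcna2 are highest in the mutant knockouts, and the knockout groups of Kcnc4 lie between its control groups. Each panel has its own axis, which does not start at 0.

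Modifier subunits form no channel alone and change the gating of their partners. With the knockout 1 of 8 fell in the wild-type and 1 rose in the mutant, and 0 were called between genotypes by limma (adjusted p under 0.05). The share called with the knockout was 12.5% in each genotype, beside 18.8% and 13.4% of all genes. Kcng4 fell by 0.18 ± 0.06 (adjusted p = 0.0452), lost in 11 of 12 refits without 1 array, and without wild-type control array 3 the value was -0.11 (adjusted p = 0.148). Kcnf1 was 7.36, 7.71 and 7.62 in wild-type controls and 7.76, 7.95 and 7.91 in the wild-type knockouts. It was 7.30, 7.43 and 7.69 in mutant controls and 7.89, 7.73 and 8.08 in mutant knockouts, a rise of 0.43 ± 0.12 (adjusted p = 0.0316) without overlap. That call was lost without mutant control arrays 1 or 2 or mutant knockout arrays 1 or 3 (adjusted p from 0.0715 to 0.109). The wild-type groups did not overlap either, but their difference passed only with the replicate block (0.31, adjusted p = 0.0426).

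Accessory subunits of voltage-gated channels moved in both directions: of the 8 tested, 1 rose and 1 fell in the wild-type with the knockout and 2 rose and 2 fell in the mutant. These are 25% and 50% of the class, beside 18.8% and 13.4% of all genes. Kcnip4, a calcium-binding partner of transient outward channels, was 10.86, 10.70 and 10.93 in wild-type controls, 10.20, 10.36 and 10.64 in the wild-type knockouts, 10.73, 10.83 and 10.85 in mutant controls and 10.21, 10.20 and 10.09 in mutant knockouts. Every knockout array lay below every control array of either genotype. In the wild-type it fell by 0.43 ± 0.10 (adjusted p = 0.00821), and in the mutant by 0.63 ± 0.10 (adjusted p = 0.00152).

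The Kcnab genes encode cytoplasmic beta subunits of voltage-gated channels. Kcnab2 was 8.40, 8.60 and 8.45 in wild-type controls, 8.84, 8.92 and 8.87 in the wild-type knockouts, 8.42, 8.23 and 8.56 in mutant controls and 8.77, 8.82 and 8.81 in mutant knockouts. All 6 knockout arrays lay above all 6 control arrays. It rose by 0.40 ± 0.08 in both genotypes (adjusted p = 0.00326 and 0.00633). In the same comparisons 10 and 5 of 10 macrophage markers rose, with medians of 1.01 and 0.34 for the list. Of 10 endothelial markers 5 and 6 rose, with medians of 0.53 and 0.39. The part of these or other cell types in the Kcnab2 result was not tested. Kcnab1 fell by 0.25 ± 0.07 (adjusted p = 0.0366) in the mutant, lost in 5 of 12 refits. Kcnab3 rose there by 0.21 ± 0.05 (adjusted p = 0.017), lost without mutant control array 2 or mutant knockout array 2 (adjusted p = 0.0664 and 0.0505), and was higher in the mutant among knockouts by 0.32 ± 0.05 (adjusted p = 0.00256). Its group means were 7.43, 7.46 and 7.57 before that of 7.78 in mutant knockouts, close to the olfactory mark.

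The BK channel of smooth muscle joins the pore Kcnma1 with the beta subunit Kcnmb1, which raises its calcium sensitivity. Kcnma1 was 11.80, 11.61 and 11.71 in wild-type controls, 11.27, 11.37 and 11.34 in the wild-type knockouts, 11.45, 11.22 and 11.40 in mutant controls and 11.29, 11.40 and 11.64 in mutant knockouts. The wild-type controls lay above all wild-type knockouts and mutant controls and overlapped with the mutant knockouts. It fell by 0.38 ± 0.09 (adjusted p = 0.00984) with the knockout in the wild-type, and the mutation lowered it by 0.35 ± 0.09 (adjusted p = 0.0353) among controls, the latter lost without wild-type control arrays 1 or 3 or mutant control arrays 2 or 3 (adjusted p from 0.0537 to 0.15). A second Kcnma1 probe set with a mean of 6.82, under the filter, gave 0.04 and -0.07, and averaging both turned the values to -0.17 (adjusted p = 0.0895) and -0.21 (adjusted p = 0.0756).

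Kcnmb1 was 13.65, 13.65 and 13.67 in wild-type controls, 13.43, 13.49 and 13.45 in the wild-type knockouts, 13.61, 13.66 and 13.62 in mutant controls and 13.50, 13.57 and 13.54 in mutant knockouts. Knockout arrays lay below control arrays in both genotypes. It fell by 0.20 ± 0.04 (adjusted p = 0.00618) in the wild-type, and in the mutant the difference was -0.10 ± 0.04 (adjusted p = 0.144). Smooth muscle markers had 0 higher and 2 lower of 10 in the wild-type comparison and 1 higher and 1 lower in the mutant.

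Kcnt2, a sodium-activated channel, was 10.10, 10.08 and 10.05 in wild-type controls, 10.08, 9.95 and 10.07 in the wild-type knockouts, 9.72, 9.81 and 9.66 in mutant controls and 9.46, 9.41 and 9.54 in mutant knockouts. All mutant arrays lay below all wild-type arrays. The mutation lowered it by 0.35 ± 0.06 (adjusted p = 0.0047) among controls and by 0.56 ± 0.06 (adjusted p = 0.000194) among knockouts. The knockout lowered it by 0.26 ± 0.06 (adjusted p = 0.0122) in the mutant, lost without mutant control array 2 or mutant knockout array 2 (adjusted p = 0.0571 and 0.0513). Calcium-activated channels of the endothelium were not called: Kcnn3 differed by 0.06 (95% interval -0.08 to 0.19) and 0.03 (95% interval -0.10 to 0.17) with the knockout in the wild-type and the mutant, and Kcnn4 by 0.04 (95% interval -0.16 to 0.23) and -0.09 (95% interval -0.29 to 0.10). Of the 10 endothelial markers 5 and 6 rose in the same comparisons.

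None of the 3 tested members outside these classes was called by limma (adjusted p under 0.05). Kcnd3os, a transcript from the opposite strand of Kcnd3, differed by 0.17 ± 0.06 (adjusted p = 0.0823) with the knockout in the mutant. Altogether the 43 members called in no comparison had differences from -0.24 (Kcne4) to 0.21 (Kcns1) for the knockout in the wild-type and from -0.30 (Kcnq5) to 0.32 (Kcnip3, adjusted p = 0.0635) in the mutant. For the mutation they ran from -0.33 (Kcnk1, adjusted p = 0.123) to 0.31 (Kcnq5) among controls and from -0.24 (Kcnj14) to 0.27 (Kcnip3) among knockouts.

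The knockout effect differed between the Fbn1 genotypes for 5 members by limma's interaction contrast, each with the more positive effect in the mutant. This is 7.46% of the members, beside 1.48% of all genes, of which 0.401% were more positive and 1.08% more negative. Kcnc4 differed by 0.84 ± 0.11 (adjusted p = 0.00309), Kcnk3 by 0.74 ± 0.15 (adjusted p = 0.0346), Kcna2 by 0.56 ± 0.11 (adjusted p = 0.0269), Kcnj8 by 0.53 ± 0.12 (adjusted p = 0.0497) and Kcnh2 by 0.43 ± 0.10 (adjusted p = 0.0493). Their patterns were unlike: Kcnc4 changed direction, Kcnk3 rose in both genotypes, Kcna2 and Kcnj8 rose by the threshold in the mutant only, and Kcnh2 fell by the threshold in the wild-type only. Refits without 1 array kept Kcnc4 in all 12, and lost Kcna2 in 6, Kcnk3 in 9, Kcnh2 in 11 and Kcnj8 in 11, with adjusted p up to 0.0795, 0.0835, 0.116 and 0.121. The Kcna2 difference was 0.03 in its second probe set and 0.30 (adjusted p = 0.173) with both averaged. Kcna2 was lost without wild-type control arrays 2 or 3, wild-type knockout arrays 2 or 3 or mutant control arrays 1 or 2. Kcnk3 was kept only without wild-type control array 1, mutant control array 2 or mutant knockout array 3, Kcnh2 only without wild-type knockout array 2, and Kcnj8 only without mutant knockout array 3.

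Neighbouring members did not share their calls throughout. Kcna3, Kcna2 and Kcna10 follow each other with no protein-coding gene between, and with the knockout in the mutant they differed by 0.05 ± 0.08 (adjusted p = 0.667), 0.73 ± 0.08 and 0.31 ± 0.07. Kcna5, Kcna1 and Kcna6 form a like run, and among controls the mutant differed by 0.17 ± 0.09, -0.17 ± 0.12 and -0.54 ± 0.10. Kcnj6, next to Kcnj15, lay at background.

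Promoters are given for the genes with the largest mutation differences among controls, Kcnj15 and Kcnc4, and for Kcnip4, which fell in both genotypes. Each line holds the 250 bases before the transcription start from RefSeq (GRCm38.p6), 5′ to 3′ on the gene's strand, and for Kcnip4 those of 1 of its 2 listed promoters. Capitals mark CAGAC (a SMAD-binding motif), found here on the other strand as GTCTG, and TGANTCA (the AP-1 motif), found as TGATTCA. The coordinates are chr16:95257308-95257557 (+) for Kcnj15, chr3:107458899-107459148 (-) for Kcnc4 and chr5:49285660-49285909 (-) for Kcnip4.
Kcnj15: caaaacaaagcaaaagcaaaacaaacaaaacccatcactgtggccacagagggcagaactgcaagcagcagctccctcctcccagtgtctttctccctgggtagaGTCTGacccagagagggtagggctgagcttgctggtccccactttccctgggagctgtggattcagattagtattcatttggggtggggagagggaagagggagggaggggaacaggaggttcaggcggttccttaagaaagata
Kcnc4: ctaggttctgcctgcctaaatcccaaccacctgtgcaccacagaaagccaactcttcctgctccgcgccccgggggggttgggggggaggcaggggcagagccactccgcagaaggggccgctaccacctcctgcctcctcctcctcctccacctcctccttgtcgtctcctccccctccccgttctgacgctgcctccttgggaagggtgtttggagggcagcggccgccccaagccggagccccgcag
Kcnip4: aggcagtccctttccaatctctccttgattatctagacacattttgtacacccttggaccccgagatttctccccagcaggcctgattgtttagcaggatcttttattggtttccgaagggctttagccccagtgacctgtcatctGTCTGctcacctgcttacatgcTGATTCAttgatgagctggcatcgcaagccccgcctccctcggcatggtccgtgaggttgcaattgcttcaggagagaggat

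Of the 24 members called at least once, 21 had at least 1 promoter in the table, 26 promoters in all, and Kcnk3 was among those without. CAGAC was found on either strand in 10 of the 26 (38.5%), beside 42.2% of all 32851 promoters of the same length. TGANTCA was found in 1 (3.85%, beside 6.75%), and the CArG box, the serum response factor motif of smooth muscle genes, in 0 (beside 1.47%). The motifs do not overlap in the lines shown. A match is a stretch of letters and not a shown binding site.

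Partners of potassium channels were taken from a list of 26 genes, chosen with earlier results known, of which 22 were tested. With the knockout 0 rose and 3 fell in the wild-type (Amigo1, Akap9 and Dlg1), and 3 rose and 1 fell in the mutant (Lrrc52, Calm3 and Dlg4 higher, Akap9 lower), with medians of -0.04 and 0.03. Akap9, an anchor of protein kinase A at channels, fell by 0.32 ± 0.09 and by 0.34 ± 0.09. Between genotypes Nedd4l, a ubiquitin ligase of channels, was lower in the mutant by 0.55 ± 0.10 among controls and by 0.53 ± 0.10 among knockouts. In all 0 rose and 3 fell among controls and 1 rose and 1 fell among knockouts, and 0 differed in their knockout effect by limma (adjusted p under 0.05). The shares called in the order of the comparisons above were 13.6%, 18.2%, 13.6%, 9.09% and 0%, beside 18.8%, 13.4%, 6.49%, 5.96% and 1.48% of all genes.

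Of 25 genes of other potassium transport 17 were tested, of which 29.4%, 23.5%, 0%, 23.5% and 5.88% were called in the same order. With the knockout 4 rose and 1 fell in the wild-type and 4 rose and 0 fell in the mutant, with medians of 0.05 and 0.12. The rises were mostly of Fxyd genes, small regulators of the sodium-potassium pump: Fxyd6 rose by 0.90 ± 0.07 in the wild-type, by 0.32 ± 0.07 in the mutant, and its knockout effect differed by -0.58 ± 0.10 (adjusted p = 0.012). The mutation changed 0 among controls by limma (adjusted p under 0.05), and among knockouts 2 were higher (Atp1b2 and Fxyd7) and 2 lower (Fxyd6 and Fxyd5).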

How the data were processed

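The 12 arrays measured RNA of the mouse ascending aorta (3 a group). The authors normalised with RMA in Partek 6.4, per the submitters' processing notes, and deposited 35556 probe sets as linear intensity. Log2 was taken here. Of the probe sets 21789 carry 1 symbol, 1621 several and 12146 none, and members were named from the first kind. All 92 members matched RefSeq by Entrez ID.

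One coefficient per group was fitted to 14944 genes by lmFit and eBayes, without an intensity trend, in limma 3.58.1 (R 4.3.3, 8 residual degrees of freedom plus 4.54 from the prior), with 5 two-sided contrasts. Precision rests on 3 arrays a group, and the spread behind each p-value is that between these samples, which may be technical. Replicate numbers did not pair the samples: of 18 same-numbered pairs 3 had residual correlations over 0.1 (range -0.22 to 0.24). Members with a call were named, with every array's value for the 6 largest per comparison, as were channels known from arteries. The members and lists were chosen with earlier results of these data known. Alternatives covered filter, scaling, probe sets, variance model, arrays left out and marker scores as covariates. The procedure was tested on simulated data. Dates of hybridisation or scanning were not used here.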

Additional observations from a re-analysis of the deposited data

Results flagged for a closer look

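For 5 members the knockout effect differed between the Fbn1 genotypes by limma's interaction contrast, the effect in the mutant minus that in the wild-type. Kcnc4 gave 0.84 ± 0.11 (adjusted p = 0.00309), with all 3 wild-type knockout arrays below all wild-type controls and all 3 mutant knockout arrays above all mutant controls. Kcnk3 gave 0.74 ± 0.15 (adjusted p = 0.0346), and knockout arrays lay above controls in both genotypes. Kcna2 gave 0.56 ± 0.11 (adjusted p = 0.0269), also with knockout arrays above controls in both genotypes, but 0.03 in its second probe set and 0.30 (adjusted p = 0.173) with both averaged. Kcnj8 gave 0.53 ± 0.12 (adjusted p = 0.0497), where the wild-type groups overlapped, and Kcnh2 gave 0.43 ± 0.10 (adjusted p = 0.0493), with knockout arrays below controls in both genotypes. In the same contrast 5 of 10 macrophage markers and 3 of 10 fibroblast markers were called, all more negative in the mutant, beside 1.48% of all genes. Of the 9 cardiac markers tested 0 were called, as in each other marker list. With the cardiac list's score as a covariate Kcnc4 gave 0.89 (adjusted p = 0.0025) and Kcnk3 gave 0.68 (adjusted p = 0.0568).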

How the results depend on the processing

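Of the 46 calls, 15 held under each of the 25 other settings in which the gene was tested, 31 were lost in at least 1, and 0 changed direction. The counts for the knockout in wild-type and in mutant mice, the mutation in control and in knockout groups, and the difference of effects were 12, 14, 7, 8 and 5. With the cardiac score as a covariate the first and second came to 3 each, the fourth to 5 and the difference to 1. Over all genes that covariate gave 985, 156, 276 and 153 calls in these comparisons, beside 2814, 2008, 890 and 221 in the main fit. A filter at the median, which left 22 members, gave 8 in the second and 5 in the fourth. Over all genes that filter gave 2431 calls in the first comparison, beside 2814. Array weights gave 25 (20 higher, 5 lower) for the knockout in the mutant, and the immediate early score as a covariate gave 5. Calls over all genes moved as well, to 3687 and 791 in these settings, beside 2008 in the main fit. The difference of effects came to 3 with no filter, quantile normalization or the fat score, and to 2 with arrays centred on their median, the mean of a gene's probe sets, the immediate early score or without the 2 arrays of highest Ucp1 (mutant control 3 and mutant knockout 1). Over all genes the difference of effects had 149 to 239 calls in these settings, beside 221 in the main fit. The Ucp1 and immediate early settings were chosen after seeing the data. The cause of these shifts was not tested.

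With the replicate block the counts were 12, 14, 8, 8 and 3. Leaving out 1 array gave 7 to 12, 8 to 15, 5 to 8, 6 to 9 and 1 to 4. Signal over background limits the 30 members at background, for which a difference may be present below what these probe sets show.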
